A study of Mus musculus with 123 samples.

Results

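Large dorsal root ganglion (DRG) neurons with and without the calcium-buffering protein parvalbumin were compared 7 days after sciatic nerve transection (SNT). They were 22 hand-picked cells of the SNT side, out of 33 cells picked from that side at day 7 and 106 single cells kept after outlier removal (123 samples in the series). Membership was chosen by measured values, with each library scaled to a total of 1000000 (counts per 1000000, CPM). Cells with Calca below 100 CPM were taken, and they were split into 14 Pvalb-positive cells (Pvalb above 10 CPM) and 8 Pvalb-negative cells (10 CPM or less). The levels of Calca and Pvalb in these cells are therefore a description of the choice and support nothing else.

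All 22 cells came from C57BL/6 mice that were 2 months old, and the injured nerve was cut at mid-thigh. Of the Pvalb-positive cells 9 were from female and 5 from male mice, and of the Pvalb-negative cells 5 were from female and 3 from male mice. Xist exceeded the summed Y-linked genes in 14 of 14 female cells and the reverse held in 8 of 8 male cells. The comparison cells were 7 control-side cells of day 7 with the same strain and Calca limit, and 14 SNT-side cells of day 3. The day 3 cells came from CAST/Eij male X C57BL/6 female F1 mice. The methods of the study describe these mice as female, but no label gives the sex of a day 3 cell. Of the 5 sex-linked genes (Xist and Y-linked genes) 4 averaged 1 CPM or more in the 14 cells, so Y-linked transcripts were among those measured. Control-side cells came from the uncut side of operated mice, so no cell came from an unoperated animal.

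Cells were lysed and amplified with Smart-seq2, a full-length method without molecular identifiers. The 22 libraries held 312340 to 965292 counts with a median of 707753. Genes above 10 CPM numbered 7723 to 8889 per cell. No label names the animal of a cell, so all cells of 1 side and day were treated as 1 sample. Values are given as mean ± SD over cells with no test and no p-value, and the SD is the spread between picked cells. Binomial intervals are exact (Clopper-Pearson, 95%) and, like count floors, cover counting error only.

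Sensory neurons with thick myelinated axons fall into proprioceptors, which innervate muscle spindles and tendon organs, and low-threshold mechanoreceptors (LTMRs), which innervate skin. Proprioceptors are known for Pvalb, the transcription factors Runx3 and Etv1 and the neurotrophin-3 receptor Ntrk3. LTMRs are known for Ntrk2, Ret, Maf and, in part, Calb1. After the peripheral axon is cut, an axotomized neuron switches on Atf3, a stress-induced transcription factor, while neighbours whose axons were spared keep it low.

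The label of large neurons was checked against transcripts, because soma diameters are not analysed here. Nefh, the heavy neurofilament chain of myelinated neurons, was above 1000 CPM in 22 of 22 cells, with a lowest value of 1017 CPM. Mrgprd, which marks nonpeptidergic nociceptors, was 0 in all 22 cells, and P2rx3 exceeded 10 CPM in 1 cell, at 23.4 CPM. Th, a marker of C-fibre LTMRs, reached at most 2.39 CPM. Satellite glial RNA was present in some libraries. Apoe exceeded 1000 CPM in 3 of 14 Pvalb-positive and 2 of 8 Pvalb-negative cells, and the summed level of the 10 glial markers was 1.74 to 9481 CPM in the former and 381 to 7230 CPM in the latter. Of 9 glial markers measured 1 was lower in Pvalb-positive cells (Pmp22) and the median log2 ratio was -0.53. Atf3, described next, divides each group, and among Atf3-low cells (100 CPM or less) the median glial sum was 37.9 CPM with Pvalb (1.74 to 7206 CPM) and 867 CPM without (381 to 6711 CPM). There 2 of 9 glial markers were lower in Pvalb-positive cells (Mbp and Pmp22). Among Atf3-high cells the medians were 691 and 713 CPM. The part of glial RNA in the Atf3-low differences was not tested. Without the 5 Apoe-rich cells 385 genes were higher and 627 lower, against 304 and 511 with them. Immune markers summed to 238 CPM in replicate 28 and to at most 17.5 CPM in the other cells, and of 3 measured Cd74 was higher.

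The thresholds were not equally clear-cut. Calca left a wide gap, from 66.3 CPM in the highest cell taken to 998 CPM in the lowest cell left out. Pvalb did not, since the highest Pvalb-negative cell had 9.60 CPM and the lowest Pvalb-positive cell 12.9 CPM. Among the Pvalb-positive cells 6 lay at 614 to 937 CPM, 2 at 109 and 131 CPM, and 6 at 12.9 to 31.3 CPM. In the 11 day 7 SNT-side cells with Calca at 100 CPM or more, a class that should lack Pvalb, 3 cells were above 10 CPM (27.3%, interval 6.02 to 61.0%) and the highest had 14.2 CPM. Their median depth was 452808 counts. A Pvalb level near 14 CPM is thus also found in peptidergic cells, and 3 of the 14 Pvalb-positive cells (12.9, 13.6 and 14 CPM) lay at or below it.

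Atf3 separated the 22 cells into 2 states with nothing in between. It was at most 13.9 CPM in 11 cells and 704 to 1778 CPM in the other 11. In Pvalb-positive cells Atf3 ran from 0 through a median of 444 to 1470 CPM, and in Pvalb-negative cells from 0 through 357 to 1778 CPM. Atf3 was high in 7 of 14 Pvalb-positive cells (50.0%, interval 23 to 77%) and in 4 of 8 Pvalb-negative cells (50.0%, interval 15.7 to 84.3%). The log2 ratio of mean CPM + 1 was -0.09, so the groups overlapped and had the same share of Atf3-high cells. It was -1.83 in male and 0.72 in female cells. The sexes were unevenly spread over the states. Male cells were 4 of 7 Pvalb-positive and 1 of 4 Pvalb-negative cells in the Atf3-low state, and 1 of 7 and 2 of 4 in the Atf3-high state. Comparisons within a state are thus unbalanced by sex, and by the mice that gave the cells.

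The level of Pvalb itself went with the Atf3 state. All 6 cells with Pvalb above 500 CPM had Atf3 at or below 13.9 CPM. The 7 Atf3-high Pvalb-positive cells had Pvalb of 12.9, 14, 17.4, 19.4, 31.3, 109 and 131 CPM. The remaining Atf3-low Pvalb-positive cell, replicate 22, had Pvalb of 13.6 CPM and the highest Calca of all members. Because Pvalb chose the cells, these values are a description only.

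**Figure D1:**
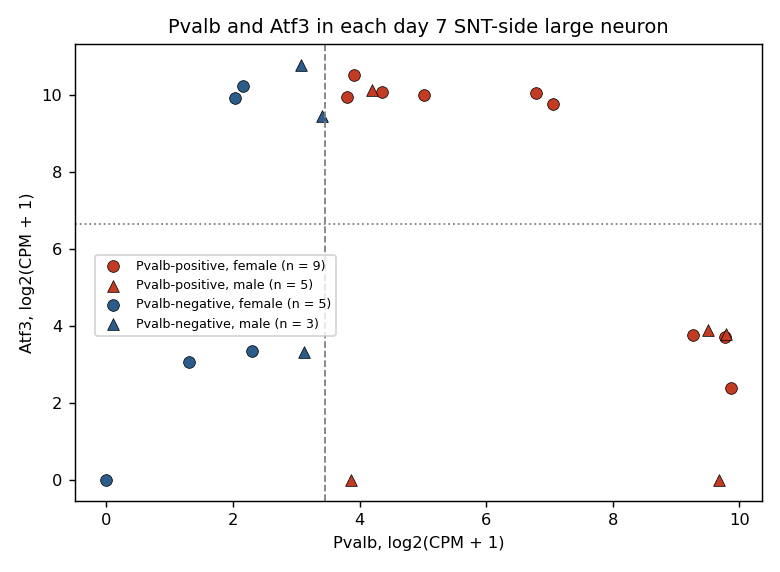
Pvalb (x axis) and Atf3 (y axis) of each of the 22 cells as log2(CPM + 1), with colour for the Pvalb group and shape for sex. The dashed line marks 10 CPM of Pvalb and the dotted line 100 CPM of Atf3. The 6 cells with Pvalb of 614 CPM or more all lie in the Atf3-low range, and Atf3-high cells of both groups lie between 704 and 1778 CPM.

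Of 25 listed axotomy genes 23 were measured at a mean of 1 CPM or more, 1 was higher in Pvalb-positive cells (Cckbr), 3 were lower (Npy, Klf6 and Csf1) and the median log2 ratio was -0.14, against -0.02 over all 13051 genes. A gene was counted as higher or lower at a log2 ratio of at least 1 in size with 10 CPM or more in the higher group. On this rule 2.33% of all genes were higher and 3.92% lower in Pvalb-positive cells. Within Atf3-low cells 16 of the listed genes were measured, and 5 were lower in Pvalb-positive cells (Hspb1, Klf6, Flrt3, Tubb6 and Cacna2d1) and 1 was higher (Gap43), where 7.2% of 12815 genes were lower and 4.21% higher. Hspb1, a small heat shock protein, was 552 to 1089 CPM in Atf3-low Pvalb-negative cells and 3.2 to 1129 CPM, with a median of 12.2 CPM, in Atf3-low Pvalb-positive cells. Within Atf3-high cells 3 of 23 were higher (Ecel1, Cckbr and Socs3) and 2 lower (Npy and Csf1), where 3.67% of 12683 genes were higher and 4.35% lower. Vip was 0 in all 22 cells. Of 24 listed genes measured at day 3, Npy was higher in Pvalb-positive cells and 5 were lower (Gal, Ecel1, Anxa1, Cckbr and Cacna2d1). At day 3, 2.58% of 13408 genes were higher and 4.61% lower. The calls of Npy and Cckbr thus went the other way from day 7.

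Sprr1a, a cornified-envelope protein of regenerating axons, had a mean of 2915 ± 1472 CPM (SD, n = 7) in Atf3-high Pvalb-positive and 3027 ± 781 CPM (SD, n = 4) in Atf3-high Pvalb-negative cells. It was at most 2.10 CPM in every Atf3-low member. Sox11, a transcription factor of regenerating neurons, was 252 to 517 CPM and 349 to 506 CPM in these Atf3-high groups, which overlapped. Npy, a neuropeptide induced by nerve injury, was 0 in all 11 Atf3-low cells. In Atf3-high cells it was 9.28 to 2186 CPM with Pvalb (median 926 CPM) and 1177 to 6483 CPM without (median 1489 CPM), with a log2 ratio over all 22 cells of -1.60. Without replicate 13, which had the 6483 CPM, that ratio was -0.44. Csf1, the growth factor through which injured neurons recruit microglia, was 56.9 to 290 CPM in Atf3-high Pvalb-positive and 153 to 429 CPM in Atf3-high Pvalb-negative cells. Its log2 ratio of -1.11 over all cells became 0.19 in female cells.

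On the control side 1 of the 7 cells with low Calca was Pvalb-positive, at 17.2 CPM, and no control cell of day 7 reached the high Pvalb levels of the SNT side. A comparison of SNT and control sides was therefore possible only for Pvalb-negative cells, with 8 against 6. Atf3 was 587 ± 689 CPM (SD, n = 8) on the SNT side and 8.6 ± 10.4 CPM (SD, n = 6) in control-side cells. The log2 ratio was 5.94. It was -0.38 when the 4 Atf3-low SNT-side cells were taken alone. Nsg2 was 1.48 to 133 CPM and Piezo2 280 to 1218 CPM in the control-side cells, levels that overlapped those of the Pvalb-negative SNT-side cells.

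Over all 22 cells, 304 genes were higher and 511 lower in Pvalb-positive cells. The groups did not overlap for 1 higher gene, Pvalb itself (0.00766% of genes), and for 4 lower genes (0.0306%). The 15 largest ratios among genes above 10 CPM in 50% or more of the higher group's cells belonged, in order, to Ina, Pvalb, Plekhg1, Kcnip1, Cdh12, D430041D05Rik, Gm13629, Cux2, Kcnip2, Pde1a, Gprc5b, Cdh20, Glis3, Smpx and Pthlh. In the other direction 14 of the 15 were Prokr2, P2ry1, Tspan8, Nsg2, Cadps2, Rgs4, Rab3b, Hs3st4, Lhfpl2, Tmem200a, Tagln2, Dapk1, Ccdc141 and Plp2. Gm13629 lies antisense to exons of Scn9a, and the sources used here do not state that counting used the strand. Exons of Ina, D430041D05Rik, Gprc5b, P2ry1, Tspan8, Rab3b, Hs3st4, Tmem200a and Plp2 also overlap a gene of the opposite strand. Those of Cdh12 overlap a gene of the same strand. Of the 304 higher genes 275 had the same direction in male and in female cells (90.5%, against 26.5% of all genes tested), and of the 511 lower genes 418 (81.8%, against 25.7%), but both sexes were part of the data that made the calls.

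The Pvalb-positive class was mixed with regard to proprioceptor markers. Of the 5 listed markers other than Pvalb, 4 were higher (Runx3, Etv1, Spp1 and Whrn), none was lower and the median log2 ratio was 2.75. In Atf3-low cells all 5 were higher. In Atf3-high cells 2 of 4 measured were higher (Etv1 and Spp1) and 1 was lower (Ntrk3). Of all genes 2.33% were higher over all cells, 4.21% in Atf3-low and 3.67% in Atf3-high cells, and 4.35% were lower in Atf3-high cells.

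Runx3, a transcription factor required by proprioceptors, was 76.3, 88.7, 92.7, 95.8, 124 and 136 CPM in the 6 cells with Pvalb above 500 CPM and 0 in replicate 22. In the Atf3-high Pvalb-positive cells 1 of 7 exceeded 10 CPM, at 15.2 CPM. In the Pvalb-negative cells 7 of 8 were at 0 and replicate 30 had 32 CPM. High Runx3 was thus found in the Atf3-low Pvalb-positive cells other than replicate 22. The log2 ratio was 3.2 over all cells, 5.53 without replicate 30, 6.47 in Atf3-low cells and -1.30 in Atf3-high cells.

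Whrn, which encodes the scaffold protein whirlin, was 35.2 to 144 CPM in the same 6 cells. It was 2.67 CPM in 1 Atf3-high Pvalb-positive cell and 0 in every other member. Pooled over the group it was at least 66.7-fold higher in Pvalb-positive cells, against a floor of 3 counts over the Pvalb-negative group. Etv1, a transcription factor of proprioceptor specification, was 925 to 1518 CPM in the 6 cells, 29.2 CPM in replicate 22 and 2.33 to 36.6 CPM in the Atf3-high Pvalb-positive cells. The Pvalb-negative cells had a median of 16.2 CPM, with a highest value of 651 CPM in replicate 11, and the log2 ratio of 2.24 became 4.15 without that cell.

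Spp1, which encodes osteopontin, ran from 0 through a median of 763 to 3072 CPM in Pvalb-positive cells and from 0 through 16.7 to 486 CPM in Pvalb-negative cells. Its log2 ratio was 2.75, with 3.94 in Atf3-low and 1.56 in Atf3-high cells. Ntrk3 was 237 ± 242 CPM (SD, n = 14) and 150 ± 113 CPM (SD, n = 8), a log2 ratio of 0.66. The Atf3 states pointed in opposite ways for Ntrk3. In Atf3-low cells it was 184 to 959 CPM with Pvalb and 3.85 to 130 CPM without, and in Atf3-high cells 5.35 to 214 CPM with Pvalb and 202 to 346 CPM without.

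The LTMR markers that were called were all lower in Pvalb-positive cells. Of 9 measured markers 5 were lower (Ntrk2, Calb1, Necab2, Colq and Cacna1h), none was higher and the median log2 ratio was -1.20. Necab2, Colq and Cacna1h exceeded 10 CPM in only 3, 2 and 2 of 8 Pvalb-negative cells, against 4, 2 and 0 of 14 Pvalb-positive cells. Cacna1h had a median of 0 CPM in both groups, and the Colq median was higher with Pvalb (2.78 against 0.52 CPM). Of the 4 not called, Maf and Cntnap2 had higher means with Pvalb, and Ret and Gfra1 lower means. In Atf3-low cells 6 of 9 were lower and in Atf3-high cells 1 of 8, Calb1. The summed level of the 10 listed markers was 425 to 1910 CPM in Atf3-low Pvalb-positive cells and 1961 to 2634 CPM in Atf3-high Pvalb-positive cells. In Pvalb-negative cells it was 1569 to 2510 CPM and 2912 to 3486 CPM.

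Ntrk2, the receptor for brain-derived neurotrophic factor, ran from 1.21 through a median of 33.4 to 349 CPM in Pvalb-positive and from 106 through 247 to 1494 CPM in Pvalb-negative cells. The log2 ratio was -2.17, and -1.53 without replicate 10, which had the highest value. It was -4.63 in Atf3-low cells and -0.13 in Atf3-high cells. Calb1, the calcium-binding protein calbindin, ran from 0 through 7.3 to 118 CPM and from 0 through 100 to 1166 CPM. Its log2 ratio was -3.70, with -4.09 and -2.09 in the 2 states, and -2.95 without replicate 11. Colq, the collagen tail of acetylcholinesterase, had a log2 ratio of -1.20 that turned to 0.21 without replicate 10.

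**Figure D2:**
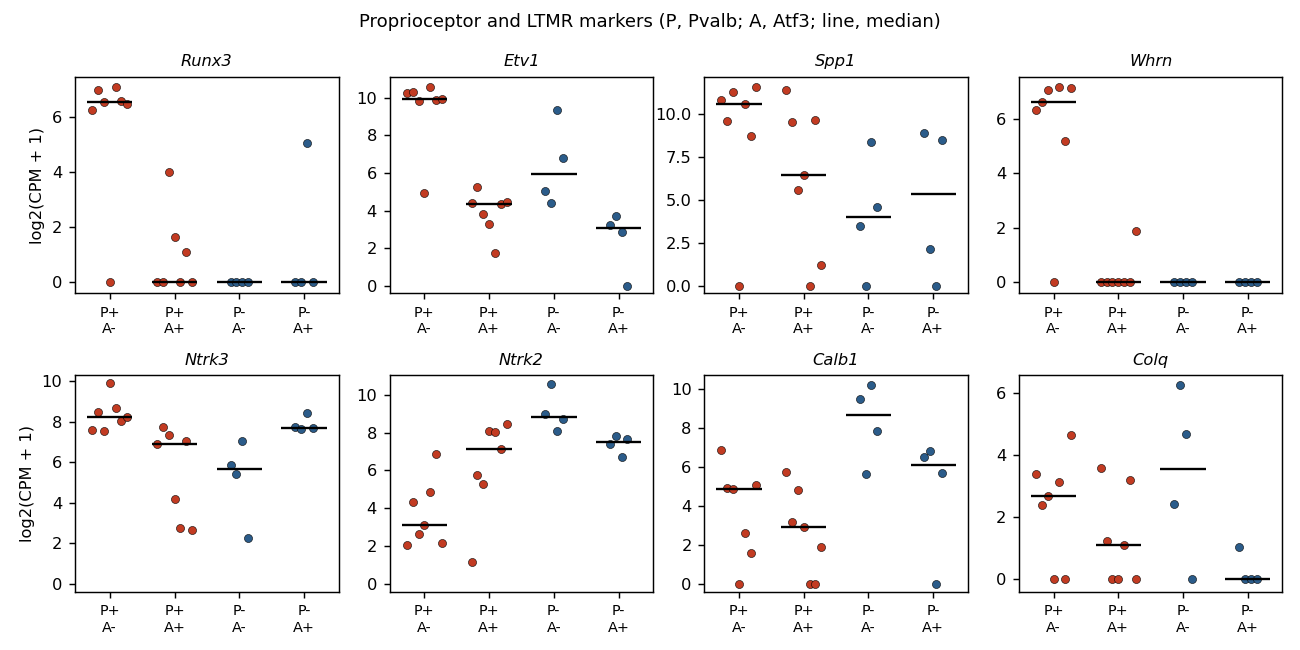
Level of 8 proprioceptor and LTMR markers as log2(CPM + 1) in each cell, grouped by Pvalb (P+, P-) and Atf3 (A+, A-), with 7, 7, 4 and 4 cells from left to right and a line at the median. Runx3 and Whrn stand at 76.3 to 136 and 35.2 to 144 CPM in 6 of 7 Atf3-low Pvalb-positive cells and reach at most 32 and 2.67 CPM elsewhere.

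Genes were then sought whose difference appeared in each Atf3 state, since the 7 against 4 Atf3-low and 7 against 4 Atf3-high cells share no cell. Of 539 genes higher in Atf3-low cells and 466 higher in Atf3-high cells, 91 were higher in both (16.9% and 19.5% of each list). Of 922 and 552 lower genes 138 were lower in both (15% and 25%). Opposite calls were fewer, with 31 genes higher in Atf3-low and lower in Atf3-high cells and 33 the other way. In the plot of both states, Plekhg1 and Nsg2 lie far out on both axes, whereas Runx3, Whrn and Kcnc1 lie out on the Atf3-low axis.

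**Figure D3:**
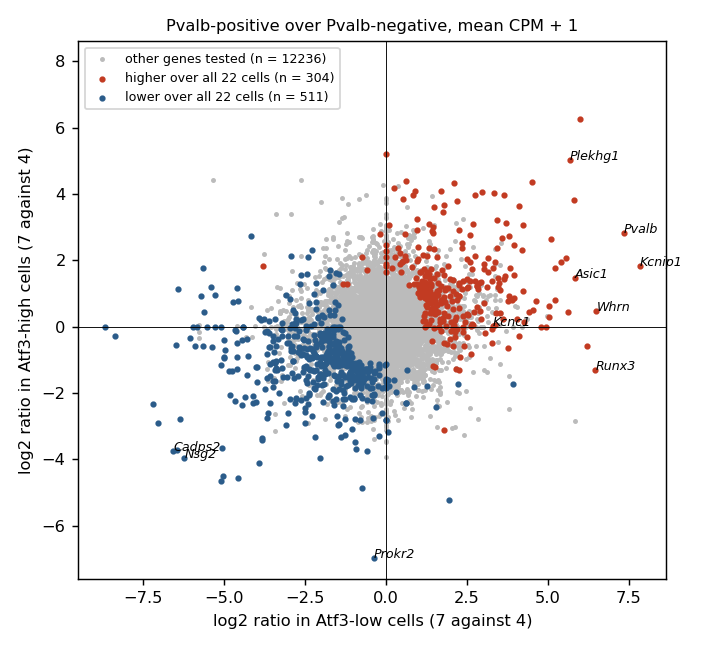
Log2 ratio of mean CPM + 1, Pvalb-positive over Pvalb-negative, in Atf3-low cells (x axis) and in Atf3-high cells (y axis) for each gene tested. Red genes are the 304 higher and blue genes the 511 lower over all 22 cells, and both used the cells plotted.

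Groups that did not overlap were common within a single state of 7 against 4 cells, counting genes with 10 CPM or more in the higher group. In Atf3-low cells every Pvalb-positive cell lay above every Pvalb-negative cell for 109 genes (0.851% of 12815) and below for 251 (1.96%). In Atf3-high cells the counts were 104 (0.82% of 12683) and 88 (0.694%). In both states the Pvalb-positive cells lay above for 6 genes (0.0505% of the 11877 tested in both), which were Pvalb, whose separation the choice of cells fixed, and Plekhg1, Fgf1, Wnk3, Zdhhc3 and Mrpl44. These 6 are 5.50% of the Atf3-low and 5.77% of the Atf3-high list. They lay below for 9 genes (0.0758%), which are 3.59% and 10.2% of those lists (Nsg2, Camk2n1, Cobl, Large, Maoa, Zfhx3, Stk10, Sel1l3 and D430019H16Rik). The promoters of Pvalb, which defined the groups, and of Plekhg1 and Nsg2, the genes with the largest ratios of each kind, are shown from RefSeq on GRCm38.p6, each running from before the start site into the first bases of the transcript. Both strands were searched for TGNGGT, the core bound by RUNX factors, and TGANTCA, the AP-1 and ATF core, and matches are in capitals. Where a gene has 2 entries the first was taken.
Pvalb, chr15:78206351-78206650, minus strand: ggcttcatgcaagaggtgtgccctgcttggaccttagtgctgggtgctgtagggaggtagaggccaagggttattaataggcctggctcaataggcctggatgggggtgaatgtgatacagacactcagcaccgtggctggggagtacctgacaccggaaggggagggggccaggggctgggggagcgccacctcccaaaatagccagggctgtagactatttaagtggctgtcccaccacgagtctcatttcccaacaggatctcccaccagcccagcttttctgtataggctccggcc
Plekhg1, chr10:3872417-3872716, plus strand: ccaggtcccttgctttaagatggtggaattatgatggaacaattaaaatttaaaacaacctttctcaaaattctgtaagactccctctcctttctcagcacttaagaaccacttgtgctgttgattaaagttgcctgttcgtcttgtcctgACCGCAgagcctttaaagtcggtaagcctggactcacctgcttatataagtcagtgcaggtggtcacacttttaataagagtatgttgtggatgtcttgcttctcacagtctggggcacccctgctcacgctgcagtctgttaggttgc
Nsg2, chr11:32000169-32000468, plus strand: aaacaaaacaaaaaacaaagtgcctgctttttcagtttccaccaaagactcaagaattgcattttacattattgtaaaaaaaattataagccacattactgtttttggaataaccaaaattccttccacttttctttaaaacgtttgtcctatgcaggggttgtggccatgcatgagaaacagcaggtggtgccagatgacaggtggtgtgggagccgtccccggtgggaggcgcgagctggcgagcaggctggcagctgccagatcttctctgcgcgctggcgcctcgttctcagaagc
The Plekhg1 window held 1 match to TGNGGT and the others none, and 45.8% of 32851 promoters of this length hold it. None of the 3 held TGANTCA, which 7.81% hold. The expression files use the mm9 build according to the submitters' processing notes, so these coordinates do not apply to them.

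Plekhg1, a guanine nucleotide exchange factor for small GTPases, was 15.6 to 373 CPM in Atf3-low Pvalb-positive cells and 0 to 7.7 CPM in Atf3-low Pvalb-negative cells. In Atf3-high cells it was 2.42 to 62.5 CPM with Pvalb and 0 in all 4 cells without. The log2 ratio over all cells was 5.59. Asic1, a proton-gated cation channel, was above 10 CPM in 14 of 14 Pvalb-positive cells (12.9 to 322 CPM) and in 2 of 8 Pvalb-negative cells, at 12.8 CPM in replicate 23 and 70.4 CPM in replicate 30. The log2 ratio was 3.67, and 5.68 without replicate 30. Cdh12, a cadherin, held 301 counts in Pvalb-positive and 1 count in Pvalb-negative cells, a ratio of 185 (counting interval 32.9 to 7319). Wls, which carries Wnt ligands to the cell surface, ran from 0 through 183 to 439 CPM and from 2.63 through 12.3 to 63.4 CPM, with replicate 22 at 0 and the other 13 Pvalb-positive cells above every Pvalb-negative cell. Its log2 ratio was 3.5, and 4.10 without replicate 10. Dcn, the proteoglycan decorin, was 102 ± 91.1 CPM (SD, n = 14) and 9.70 ± 10.6 CPM (SD, n = 8). Ina, the neurofilament alpha-internexin, was present in 7 of 14 Pvalb-positive cells at 103 to 204 CPM and at 0 in the others. It held 1 count in Pvalb-negative cells, a ratio of 460 (counting interval 82.3 to 18201).

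Fgf1, a growth factor without a signal peptide, shows how the state and the group combine. In Atf3-low cells it was 1318 to 2268 CPM with Pvalb and 689 to 1219 CPM without. In Atf3-high cells it was 128 to 264 CPM with Pvalb and 42.9 to 119 CPM without. The groups did not overlap in either state, but over all 22 cells the log2 ratio was 0.79.

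Among the lower genes, Nsg2, a neuronal protein of endosomes, was 0 in 11 of 14 Pvalb-positive cells and at most 1.95 CPM in the others. In Pvalb-negative cells it was 57.8, 82.6, 86.0 and 151 CPM in the Atf3-low and 6.40, 9.33, 26.1 and 38.3 CPM in the Atf3-high cells. With 3 counts in the Pvalb-positive group the ratio was 191 (counting interval 64.9 to 932). Camk2n1, an inhibitor of CaM kinase II, was 0 to 9.78 CPM against 14.5 to 55.2 CPM. Cobl, an actin nucleator, was 0 to 25.3 CPM against 33 to 84.1 CPM. Large, a glycosyltransferase that modifies dystroglycan, was 30.9 to 95.7 CPM against 109 to 191 CPM, a log2 ratio of -1.20. The groups did not overlap for these 4 genes over all cells, so they could not overlap within either Atf3 state. These 4 are among the 9 lower genes named above for both states.

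Cadps2, which primes dense-core vesicles, was 1.61 ± 3.4 CPM (SD, n = 14) and 112 ± 114 CPM (SD, n = 8), with 2 Atf3-high Pvalb-negative cells at 0. Rgs4, a regulator of G-protein signalling, was 16.1 ± 33.4 CPM (SD, n = 14) and 556 ± 947 CPM (SD, n = 8), and its log2 ratio of -5.02 was -3.80 without replicate 10, which had 2787 CPM, and -6.01 without replicate 22. Lhfpl2 and Dapk1, a calcium-dependent death-associated kinase, had log2 ratios of -4.56 and -4.20. That of Lhfpl2 was -5.23 without replicate 25. P2ry1, a purinergic receptor, was 0 in all Pvalb-positive cells and at least 266-fold higher in Pvalb-negative cells against a floor of 3 counts over the Pvalb-positive group, but replicate 10 held 494 CPM of it and no other cell more than 59.1 CPM. Its log2 ratio of mean CPM + 1 was -6.24, and -4.00 without replicate 10. No male cell of either group held any. Prokr2, a prokineticin receptor, was confined among the members to the Atf3-high state. It was 19.1 to 566 CPM in the 4 Atf3-high Pvalb-negative cells and at most 4.31 CPM in every other member, and its log2 ratio of -6.46 was -5.70 without replicate 32.

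**Figure D4:**
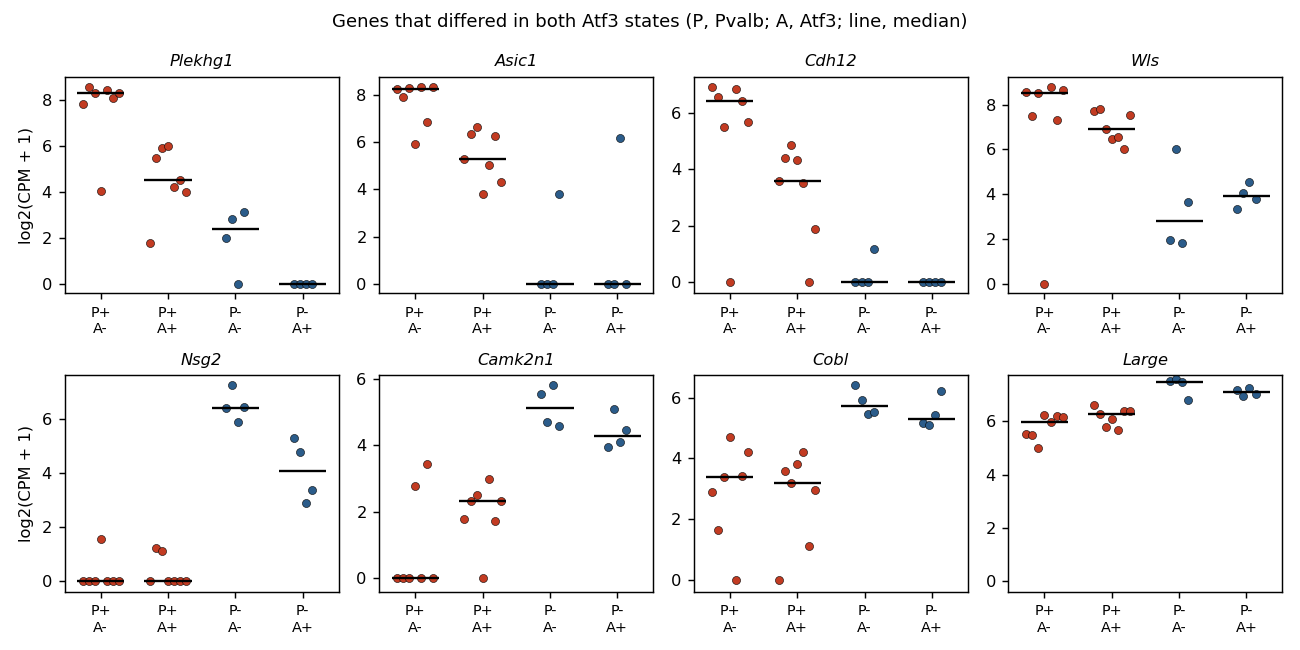
Level of 4 genes higher (top) and 4 lower (bottom) in Pvalb-positive cells in each Atf3 state, as log2(CPM + 1) in each cell, with the groups ordered as in the marker plot and a line at the median. Nsg2 is at most 1.95 CPM in the 14 Pvalb-positive cells and 6.40 to 151 CPM in the 8 Pvalb-negative cells.

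Ion channels that shape firing differed in both directions. Of 33 measured potassium and HCN channels 5 were higher (Kcnb2, Kcnc1, Kcnma1 and Kcnq5 among them) and 7 lower (Kcna4, Kcnab1, Kcnc4, Kcnd3, Kcns3 and Hcn3 among them), with a median log2 ratio of -0.0041. Of all genes 2.33% were higher and 3.92% lower. Kcnq5 had a median of 0 CPM in both groups and a highest value of 343 CPM in 1 Pvalb-positive cell. It exceeded 10 CPM in 3 of 14 Pvalb-positive and 1 of 8 Pvalb-negative cells. The higher calls came from Atf3-low cells, where the same 5 were higher and 10 were lower. In Atf3-high cells 0 of 30 were higher and 7 lower.

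Kcnc1, a channel of fast-spiking neurons, was 490 to 867 CPM in the 6 cells with high Pvalb, 136 CPM in replicate 22 and 6.68 to 92.2 CPM in Atf3-high Pvalb-positive cells. In Pvalb-negative cells it was 5.22 to 90.0 CPM. The log2 ratio was 3.3 in Atf3-low cells, 0.02 in Atf3-high cells and 2.77 over all. Kcns3, a modulatory potassium channel subunit, was 108 to 324 CPM in Atf3-low Pvalb-negative cells and 0 in the 6 cells with high Pvalb, with 105 CPM in replicate 22. Its log2 ratio of -3.52 was -5.56 without that cell. On the level of Kcns3 replicate 22 thus lay just below the Atf3-low Pvalb-negative cells.

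Of 22 measured calcium-binding genes, Kcnip1 and Kcnip2, whose products bind potassium channels, were higher and 4 were lower (Necab1, Necab3, Hpcal1 and Kcnip3). The shares over all genes were 2.33% higher and 3.92% lower. Kcnip1 was 153 to 553 CPM in the 6 cells with high Pvalb and 0 to 48.4 CPM in the other Pvalb-positive cells, and at most 16 CPM in Pvalb-negative cells. Its log2 ratio was 5.56, and 6.79 without replicate 30. Of 10 sodium channel genes none was higher and 3 were lower (Scn3a and Scn9a among them). Scn9a was 229 ± 247 CPM (SD, n = 14) and 546 ± 182 CPM (SD, n = 8), with a log2 ratio of -3.67 in Atf3-low and -0.13 in Atf3-high cells.

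Of 11 mechanosensory channel genes Asic1 was higher and Piezo2 lower, where 2.33% of all genes were higher and 3.92% lower. Piezo2, the main mechanotransduction channel of touch and proprioception, was 172 to 756 CPM with a median of 394 CPM in Pvalb-positive cells and 424 to 1556 CPM with a median of 802 CPM in Pvalb-negative cells. The log2 ratio of -1.15 was nearly the same in Atf3-low (-1.16) and Atf3-high (-1.13) cells, and was -0.45 in male and -1.50 in female cells. Of 24 vesicle release genes Cplx2 and Sv2a were higher and Slc17a6, Syt1 and Vamp2 lower. The highest Pvalb-positive cell had 687 CPM of Cplx2, but the median was 0.25 CPM there and 10.2 CPM in Pvalb-negative cells. Cplx2 exceeded 10 CPM in 2 of 14 and 4 of 8 cells, and was lower in Atf3-high cells and at day 3. Syt1, a calcium sensor of release, was 49.4 ± 31.8 CPM (SD, n = 14) and 244 ± 319 CPM (SD, n = 8), and its log2 ratio of -2.28 was -1.42 without replicate 10. Sv2a, a vesicle membrane protein, had a ratio of 2.93, and 3.79 without that cell.

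**Figure D5:**
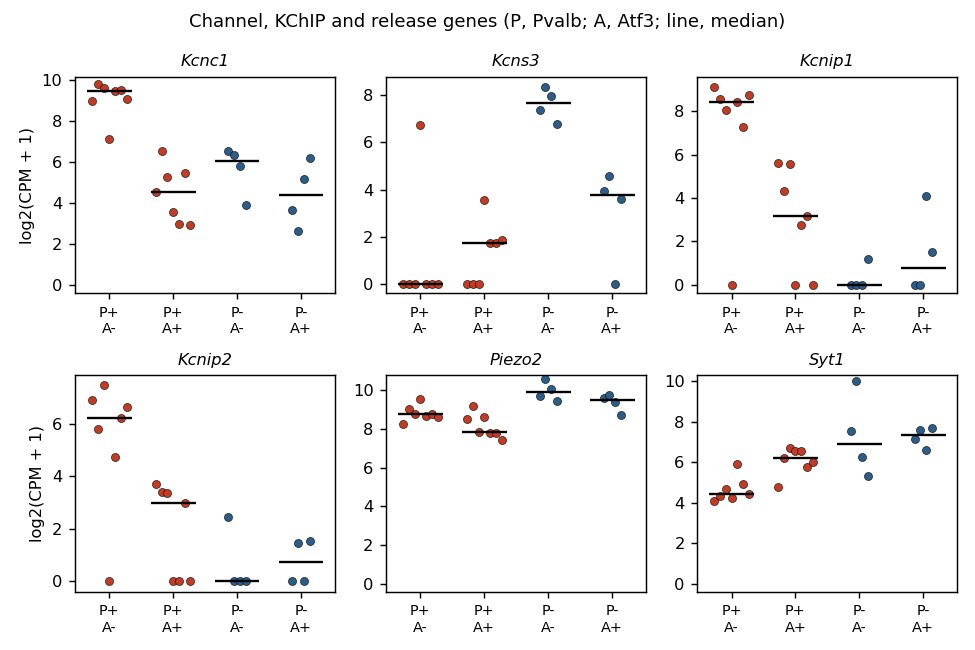
Level of potassium channel, KChIP (Kcnip1, Kcnip2), Piezo2 and Syt1 transcripts as log2(CPM + 1) in each cell, with the groups ordered as in the marker plot and a line at the median. Kcnc1 is 136 to 867 CPM in the 7 Atf3-low Pvalb-positive cells and at most 92.2 CPM in the other groups.

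Of 24 measured identity transcription factors 7 were higher (Runx1, Runx3, Etv1, Esrrb, Esrrg, Cux2 and Meis2) and 6 lower (Etv5, Pou4f2, Isl2, Prrxl1, Nfib and Ebf3). Esrrg, an orphan nuclear receptor, was 27.3 to 464 CPM in Atf3-low Pvalb-positive cells and 7.2 to 74.9 CPM in Atf3-low Pvalb-negative cells, with an overall log2 ratio of 2.67. Prrxl1 and Ebf3, with ratios of -1.99 and -1.94, were lower in each Atf3 state and at day 3. Runx1 was higher at day 7 but lower at day 3. Its day 7 mean of 10.3 CPM with Pvalb, against 3.04 CPM without, lay just above the 10 CPM a call needed. It exceeded 10 CPM in 5 of 14 Pvalb-positive and 0 of 8 Pvalb-negative cells. Of 27 glutamate and GABA receptor genes 2 were higher and 3 lower, of 15 calcium channel genes 1 and 4, and of 13 neurotrophic factor receptors 0 and 4. Over all genes 2.33% were higher and 3.92% lower. The 10 markers of large myelinated neurons, the 7 early-response genes and the 87 oxidative phosphorylation subunits held no call, with median ratios of 0.49, 0.03 and 0.15. The 1 measured erythrocyte marker held none either. The 5 sex-linked genes held none over all cells, but followed the uneven sexes within the states. In Atf3-low cells Ddx3y and Kdm5d were higher and Xist lower in Pvalb-positive cells, and in Atf3-high cells these 3 were called the other way. Of 6 nonpeptidergic markers 1 was higher and 2 lower (Gfra2 and Plxnc1), of 4 peptidergic markers 2 were lower (Calcb and Kit), and of 2 C-fibre LTMR markers P2ry1 was lower. Calcb and Kit each had a median of 0 CPM in both groups. Calcb exceeded 10 CPM in 1 of 8 Pvalb-negative and 2 of 14 Pvalb-positive cells, and Kit in 2 of 8 and 3 of 14.

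Day 3 cells gave values that the day 7 split had not used, from other mice and another cross, so that day, strain and batch cannot be told apart. By the same rule 6 cells were Pvalb-positive, with Pvalb of 21.8 to 305 CPM, and 8 were Pvalb-negative. Atf3 was above 100 CPM in 6 of 6 and 7 of 8 cells. No label gives which of them had a cut axon. Apoe exceeded 1000 CPM in 5 cells of each group, and 3 of the Pvalb-negative cells held P2rx3 above 1000 CPM, a nociceptor level, against 0 Pvalb-positive cells. Over 13408 genes 346 were higher (2.58%) and 618 lower (4.61%), and 300 and 570 without the 3 P2rx3-rich cells.

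Of the 284 genes higher at day 7 that were also measured at day 3, 184 had the same direction (64.8%, against 44.1% of the 12460 genes measured on both days), and of 498 lower genes 397 did (79.7%, against 55.9%). Called the same way on both days were 61 higher genes (20.1% of the day 7 list and 17.6% of the day 3 list) and 166 lower genes (32.5% and 26.9%). Genes called alike in both Atf3 states of day 7 and at day 3 numbered 27 higher and 57 lower. They were 29.7% of the 91 higher and 41.3% of the 138 lower genes shared by both states. Of all genes at day 3, 2.58% were higher and 4.61% lower. The higher ones included Plekhg1, Asic1, Cdh12, Wls, Spp1, Sv2a, Dcn and Pthlh, and the lower ones Nsg2, Camk2n1, Cobl, Cadps2, Rgs4, Lhfpl2, Dapk1, Calb1, Syt1 and Kcns3.

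At day 3 Asic1 was 10.3 to 160 CPM in the 6 Pvalb-positive cells, and 7 of the 8 Pvalb-negative cells had at most 1.58 CPM while 1 had 175 CPM. Nsg2 was 0 to 44.1 CPM in Pvalb-positive and 24.9 to 180 CPM in Pvalb-negative cells, which overlapped. Runx3 was above 10 CPM in 2 of 6 Pvalb-positive cells and 0 in all 8 Pvalb-negative cells. Pthlh, the parathyroid hormone-related peptide, was 23.5 ± 23.5 CPM (SD, n = 6) and 0.943 ± 2.12 CPM (SD, n = 8), close to its day 7 means of 23.6 and 0.881 CPM. In contrast Kcnc1, Ina and Piezo2 had day 3 log2 ratios of -0.95, -1.14 and -0.69, and of these Kcnc1 and Ina pointed the other way from day 7 over all cells. Atf3 was high in all but 1 of the day 3 cells, so the sets differ in state. In Atf3-high cells of day 7 the Kcnc1 ratio was 0.02, and Ina held 438 counts with Pvalb and 0 without.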

How the data were processed

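Smart-seq2 libraries of single DRG neurons were sequenced by the authors, who, per the labels, used CASAVA 1.8.2, Bowtie2 and RSEM with the mm9 build. Ribosomal RNA entries were left out of the RefSeq annotation on which expression was quantified. The deposited tables, named TPM by the authors, hold expected count values, since totals differ between libraries and 87.4 to 93.6% of a member's values above 0 are whole. The table gives no gene lengths, so levels are not compared between genes. Libraries were scaled to CPM in place of TPM. Of the deposited columns 6 (pooled libraries) were not used.

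Members and gene lists were chosen with earlier results of these data known. A gene counted as tested where its mean over the compared cells reached 1 CPM, a log2 ratio of mean CPM + 1 was taken, and a call needed a ratio of 1 in size and 10 CPM in the higher group. Some genes that the lists count are not reported here by name. Named genes were those of the lists, the 15 largest ratios in each direction and genes whose groups did not overlap. Fgf1 and the genes shared by both Atf3 states and day 3 were added after their values were seen. Atf3-high means above 100 CPM. No test was made, because no animal is named. The 2 sexes came from different mice, but how many is not given and no test over sex was run. For thinning, libraries were reduced to 300000 counts. The comparison was tested on simulated data. Overlapping exons were read from GENCODE M21 and promoters from RefSeq. Python 3.11.15, numpy 2.4.6, pandas 2.3.3, scipy 1.17.1 and matplotlib 3.10.9 were used.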

Additional observations from a re-analysis of the deposited data

Results flagged for a closer look

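In the 8 Pvalb-negative cells 17 of 41 genes examined had a cell that stood apart from the others by Dixon's 95% limit, where chance flags about 1 in 20 groups of independent, normally spread values and single-cell counts with many values at 0 are not of that kind. Replicate 10 held the highest level of 10 of the 17. It had 1494 CPM of Ntrk2, 75.3 CPM of Colq, 63.4 CPM of Wls, 44.2 CPM of Sv2a, 1.20 CPM of Ina, 362 CPM of Cadps2, 2787 CPM of Rgs4, 494 CPM of P2ry1, 1019 CPM of Syt1 and 46.6 CPM of Prrxl1. Replicate 30, whose glial markers summed to 7230 CPM, had 32 CPM of Runx3, 16 CPM of Kcnip1 and 70.4 CPM of Asic1. Replicate 11 had 651 CPM of Etv1, replicate 23 had 1.28 CPM of Cdh12, replicate 3 had 4.43 CPM of Kcnip2 and replicate 13 had 6483 CPM of Npy.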

How the results depend on the processing

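No paired analysis was possible because the values come from no test and replicate numbers only name picked cells. Of the 40 genes other than Atf3 examined under 39 alternatives each, 30 kept their direction in all of them. The counts of higher and lower genes were 304 and 511. They were 173 and 264 with a pseudocount of 10 CPM, 717 and 891 at a level of 1 CPM, 110 and 179 at 50 CPM, 519 and 964 with Pvalb above 50 CPM, 878 and 1143 in male cells alone, 466 higher in Atf3-high cells, and 539 and 922 in Atf3-low cells, an alternative chosen after seeing the data. Pvalb above 1 CPM left 1 negative cell and gave 1438 and 1218, an Atf3 ratio of 9.21 against -0.09, and turned Calb1 to 1.36, Prokr2 to 4.69, Npy to 9.64 and Csf1 to 6.52. The 5 genes whose groups did not overlap became 2 in thinned libraries, 14 with Calca below 10 CPM, 1265, 29, 428, 91, 192 and 360 with Pvalb above 1 CPM, above 50 CPM, male, female, Atf3-high and Atf3-low cells, and 17 without the Apoe-rich cells, also chosen after seeing the data. Leaving out each cell in turn gave 279 to 374 higher, 475 to 589 lower and 5 to 11 not overlapping, with 11 reached without replicate 22 and 8 without replicates 5, 11, 23, 30 or 32, and an Atf3 ratio of -0.29 to 0.40. Direction turned for Colq with medians (1.32), with mean logs (0.0084), in male cells (2.89), in Atf3-high cells (1.70) and without replicate 10 (0.21, where leaving out each cell gave -1.59 to 0.21), for Cckbr with Pvalb above 50 CPM (-2.10), for Csf1 in female cells (0.19) and for Runx3 in Atf3-high cells (-1.30). Ratios under 1 in size also turned, for Fgf1 with Pvalb above 1 CPM (-0.76) and for Ntrk3 in Atf3-high cells (-1.37). The ratio was 0 for Cckbr with medians and for Cckbr and Npy in Atf3-low cells, and for P2ry1 in male cells, where both groups were at 0. The Atf3 ratio of SNT over control side in Pvalb-negative cells turned from 5.94 to -0.38 in Atf3-low cells, by construction. At day 3 the counts of 346 and 618 became 153 and 283 with a pseudocount of 10 CPM, 633 and 1175 at 1 CPM, 132 and 168 at 50 CPM, 527 and 405 with medians, 753 higher with mean logs, and 834 and 1612 without Apoe-rich cells, which left 1 against 3 cells. Leaving out each day 3 cell gave 287 to 447 and 575 to 693. The table that keeps the outliers holds the same day 7 cells and gave equal counts. Except where stated by construction or by the cells left, the cause was not tested. Smart-seq2 counts without molecular identifiers, few cells and low counts per gene limit what was detectable.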
